A study of Arabidopsis thaliana with 18 samples.

Results

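The genes described here were at least 4-fold higher in 15-day than in 9-day first-pair rosette leaves of Arabidopsis thaliana, both after 1 day of culture and before culture. They were chosen by TPM, a level scaled to transcript length and to the library's total. TPM values were averaged over 3 libraries per group. A gene was taken when its mean was at least 5 TPM in both 15-day groups and both ratios of 15 to 9 days reached 4, which gave 187 of 37686 genes in the tables. Of the 12926 genes at 5 TPM or more in both 15-day groups, 1.99% passed the ratio after culture, 6.19% before culture and 1.45% both. The genes were selected on these values, so the 15-day over 9-day ratios below are a description with no test.

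The plants were Columbia-0, a standard laboratory accession of thale cress, germinated on half-strength MS medium with sucrose in constant light. Polyadenylated RNA came from leaves of 9-, 12- or 15-day-old seedlings, either detached and kept for 1 day on B5 medium lacking sucrose or taken before culture, with 3 libraries in each of the 6 groups. Nothing in the labels ties the replicates to separate sowings, and p-values therefore cover the spread among these libraries, which may be technical. Detached leaves of this kind can form roots at the cut, and the ages address how that capacity changes.

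As a leaf ages, NAC and WRKY transcription factors switch on programs that dismantle chloroplasts and export nitrogen and minerals. Salicylic acid rises in older leaves and drives pathogenesis-related proteins, and abscisic acid drives dehydration proteins such as dehydrins. Many of these genes also answer wounding, touch and dehydration within minutes to hours. WRKY factors bind the W-box, a short DNA word with the core TTGAC.

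In the annotation, 178 members were protein coding, 4 were pseudogenes and 2 were non-coding RNAs, and 3 mitochondrial identifiers had no match in the reference. Mean levels at 15 days before culture ran from 5 to 3998 TPM with a median of 18.7 TPM. The median ratio of 15 to 9 days was 6.61 after culture, with a range of 4.04 to 73.6. Before culture it was 19.2, and ran from 4.07 to 1281 among members with counts in the 9-day libraries. All 3 of the 15-day libraries were above all 3 of the 9-day libraries in 185 members after culture, where 32.8% of the genes at 5 TPM had this order. Before culture this held for 153 members, where 28.9% of those genes had it, and the other 34 overlapped. Because these ratios chose the members, nothing is read from the counts.

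One library carried much of the level before culture. Replicate 2 of the uncultured 15-day leaves was the highest of its group in 112 members and the lowest in 48, and it held a median of 46.8% of the summed TPM of the 3 libraries. In 91 members it held more than both other libraries together. Without it, 129 of the 187 still met the rule. The other 58 did not, by the floor of 5 TPM or by the ratio, and are named library-dependent members here. In this library the members' median log2 deviation from the other 2 libraries was 0.88, while all genes had -0.19 and the early stress and touch list had 2.23. Replicate 2 of the uncultured 12-day leaves stood apart in the same direction, with 1.11 for the members, -0.01 for all genes and 2.48 for the stress and touch list. That list also varied among other libraries, from -4.72 in replicate 1 of the uncultured 12-day leaves to 2.36 in replicate 1 of the cultured 12-day leaves. The part of stress or handling in the members' levels was not tested. Before culture, 15-day and 9-day libraries were apart in 118 of the 129 members that met the rule without replicate 2 of the uncultured 15-day leaves. They were apart in 35 of the 58 that did not meet it, where 28.9% of the genes at 5 TPM had this order. The split was made on these same values, so nothing is read from the difference.

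**Figure D1:**
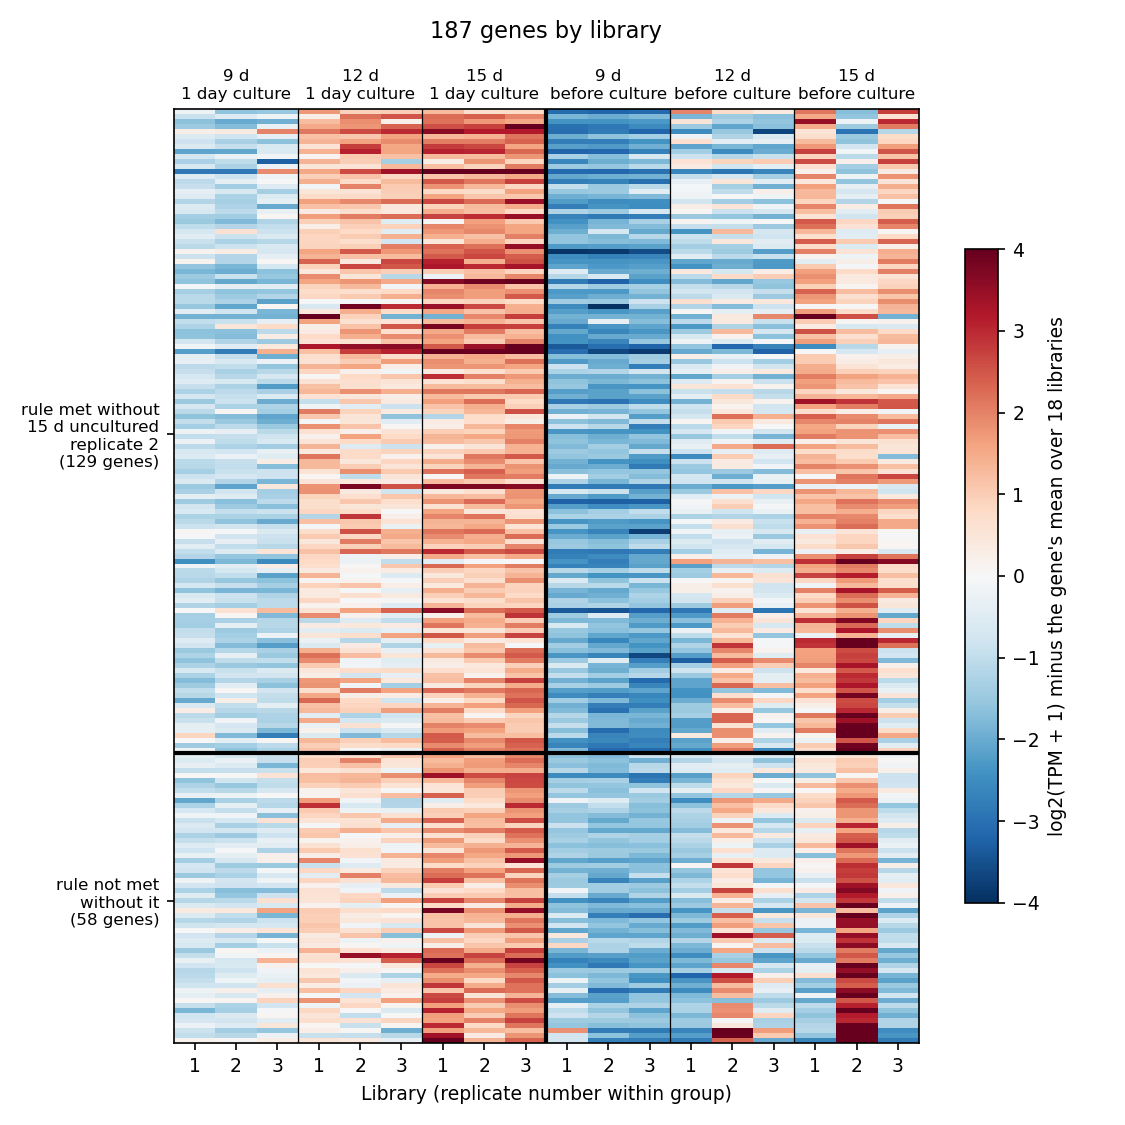
Levels of the 187 members in each of 18 libraries, as log2(TPM + 1) minus the gene's own mean over the 18 libraries, with cultured leaves left of the middle line and uncultured leaves right of it. Rows are split into the 129 members that met the rule without replicate 2 of the uncultured 15-day leaves (above) and the 58 that did not (below), and within each block are ordered by that library's share. The lower block is dark mainly in that 1 library among the 3 of its group.

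**Figure D2:**
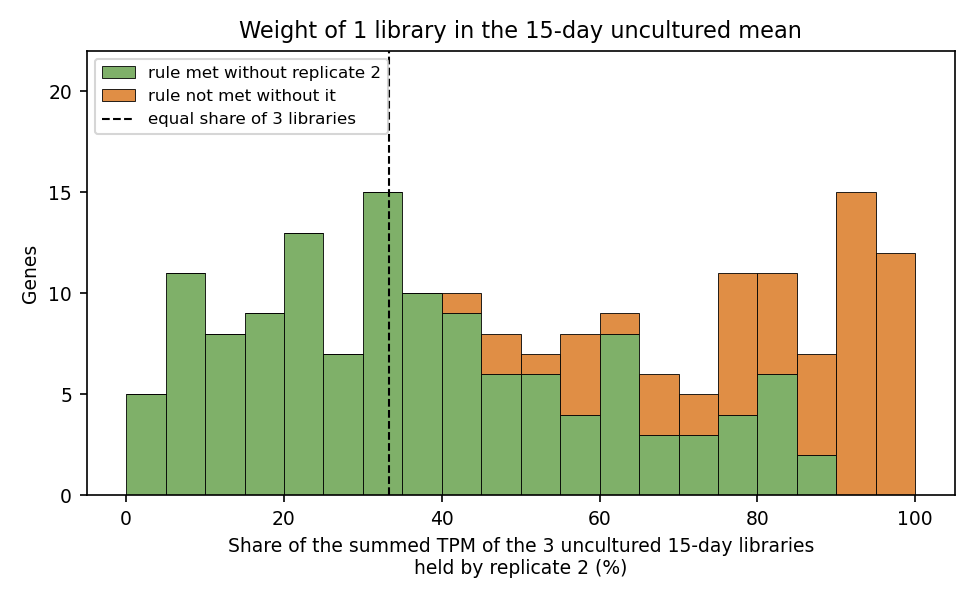
Share of the summed TPM of the 3 uncultured 15-day libraries that came from replicate 2, in percent, for each of the 187 members; bars count genes and are stacked by whether the rule was met without that library. The dashed line is the share that 3 equal libraries would have. In 45 members the share was over 80%, and the median was 46.8%.

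Library totals ran from 29664089 to 51126114 expected counts, and Pearson correlations of replicates ran from 0.904 within the uncultured 15-day group to 0.983 within the cultured 9-day group. The 5 leaf markers summed to between 20074 and 65428 TPM per library. Before culture they summed to 38448, 22807 and 42234 TPM at 15 days, against 65428, 59395 and 46823 TPM at 9 days, and were lowest in replicate 2 of the 15-day leaves. Most of the lower sum was RBCS1A, with means of 40604 TPM at 9 days and 15137 TPM at 15 days before culture. LHCB1.3 and LHCB3 also had lower means at 15 days. RCA was higher, with 10094 TPM at 9 days and 12378 TPM at 15 days, as was LHCB2.1, with 1947 and 3034 TPM. The 5 phloem markers summed to 236, 369 and 296 TPM at 15 days before culture, against 133, 97.65 and 187 TPM at 9 days, so these sums were apart in the same direction as the members. By group mean before culture, SUC2, APL, PP2-A1 and NAKR1 were higher at 15 days. SEOR1 went the other way, with 15.6 TPM at 9 days and 8.12 TPM at 15 days. After culture the 5 phloem markers summed to 241, 267 and 291 TPM at 15 days, against 268, 279 and 321 TPM at 9 days, and the groups overlapped. The part of phloem or leaf markers in the members' levels was not tested. Of the 10 root markers, PYK10, a glucosidase of endoplasmic reticulum bodies, reached 56.3 TPM, CASP1 reached 0.93 TPM, and WOX5, PLT1 and PLT2 stayed at or under 0.24 TPM. The shoot apex markers summed to at most 0.31 TPM and the seed storage markers to at most 0.57 TPM. Replicate 3 has differently worded sample labels from replicates 1 and 2 in all 6 groups, and in all 6 its 4 guard cell markers had the highest sum, between 40.8 and 96.5 TPM, against 14.4 to 49.3 TPM in replicates 1 and 2. In bulk leaf RNA, more cells of a type and more RNA per cell cannot be told apart.

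The stretch of 300 bases before each annotated start was read for the 178 protein-coding members from TAIR10.1. A W-box, searched as TTGACC or TTGACT on either strand, was present in 43.3% of them, in 31.4% of the 12521 protein-coding genes at 5 TPM in both 15-day groups and in 32.3% of all 27443 protein-coding genes. More than 1 W-box was present in 18.5% of members, 7.46% of the genes at 5 TPM and 7.91% of all genes. The share with a W-box was 59.6% among 57 library-dependent members and 35.5% among the 121 others. Other words were near the background: TGACG in 21.9% of members and 22.3% of genes at 5 TPM, the G-box CACGTG in 5.62% and 8.28%, the GCC-box GCCGCC in 2.81% and 2.53%, and ACGTGTC in 6.18% and 4.76%. GTAC stood in 46.6% and 40%, TATCCA in 16.9% and 17.2%, and the evening element AAAATATCT in 2.25% and 3.08%. Each word was counted by itself, so bases shared by overlapping words count for both; the W-box and TGACG can share only bases at their ends. A match is a description of letters and not evidence of binding.

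Some of these promoters are printed to show how the matches lie, 5' to 3' on the gene's strand with W-boxes of either strand in capitals. They were chosen after the matches were counted, from windows that overlap no other annotated gene. AT1G02610, a RING/FYVE/PHD zinc finger protein, and AT1G58225, an uncharacterized protein, were among the 4 members with the most matches, 4 each. AT1G26380, a berberine bridge-like flavoprotein, had 3. CMPG1, a U-box ubiquitin ligase that answers pathogen elicitors, and WRKY53, a senescence regulator, had 2 each.
AT1G02610 (chr1:556153-556452, minus strand): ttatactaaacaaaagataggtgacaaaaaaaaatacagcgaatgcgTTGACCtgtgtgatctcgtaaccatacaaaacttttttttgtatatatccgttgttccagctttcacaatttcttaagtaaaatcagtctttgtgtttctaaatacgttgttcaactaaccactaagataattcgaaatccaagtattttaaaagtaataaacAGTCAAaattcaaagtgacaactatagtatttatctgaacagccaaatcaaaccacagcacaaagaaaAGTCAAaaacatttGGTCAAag
AT1G58225 (chr1:21563811-21564110, plus strand): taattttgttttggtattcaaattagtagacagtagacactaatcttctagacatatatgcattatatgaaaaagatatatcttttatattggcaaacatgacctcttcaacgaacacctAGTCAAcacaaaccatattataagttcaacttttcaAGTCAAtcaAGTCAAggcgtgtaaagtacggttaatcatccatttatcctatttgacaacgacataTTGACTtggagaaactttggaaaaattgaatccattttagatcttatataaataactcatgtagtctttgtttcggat
AT1G26380 (chr1:9128569-9128868, minus strand): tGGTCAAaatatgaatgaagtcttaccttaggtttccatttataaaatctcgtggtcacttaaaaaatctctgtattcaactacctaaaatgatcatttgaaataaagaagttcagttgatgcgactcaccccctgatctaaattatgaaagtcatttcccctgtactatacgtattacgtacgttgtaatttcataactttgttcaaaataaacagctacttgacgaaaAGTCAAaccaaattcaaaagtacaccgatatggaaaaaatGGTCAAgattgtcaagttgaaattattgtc
CMPG1 (chr1:24636896-24637195, plus strand): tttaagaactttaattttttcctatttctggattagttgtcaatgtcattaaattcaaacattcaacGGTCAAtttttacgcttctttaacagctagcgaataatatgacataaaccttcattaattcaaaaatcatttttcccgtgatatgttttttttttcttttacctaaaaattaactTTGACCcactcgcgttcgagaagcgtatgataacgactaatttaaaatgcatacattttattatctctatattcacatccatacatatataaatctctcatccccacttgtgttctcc
WRKY53 (chr4:12393983-12394282, minus strand): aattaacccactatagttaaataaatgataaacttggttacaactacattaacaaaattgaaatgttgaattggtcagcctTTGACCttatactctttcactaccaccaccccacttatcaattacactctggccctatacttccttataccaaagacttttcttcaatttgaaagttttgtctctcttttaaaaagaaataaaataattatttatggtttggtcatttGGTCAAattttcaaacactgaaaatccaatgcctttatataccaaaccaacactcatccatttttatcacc

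The genes behind these windows did not share 1 pattern. AT1G02610 had 2.36, 0.71 and 0.23 TPM at 9 days, 2.82, 6.15 and 1.46 TPM at 12 days and 3.64, 12.7 and 4.35 TPM at 15 days after culture. AT1G02610 before culture had 1.19, 0.37 and 0.08 TPM at 9 days, 1.45, 40.4 and 4.51 TPM at 12 days and 41.3, 119.9 and 25.1 TPM at 15 days, with the highest value of each older group in replicate 2. AT1G26380 had 25.1, 4.65 and 13.4 TPM at 15 days after culture, and before culture 0.44, 74.3 and 0.42 TPM, so that 1 library set the uncultured mean. CMPG1 was built likewise, with 23.1, 14.7 and 37.5 TPM at 15 days after culture and 8.3, 125 and 4.06 TPM before. AT1G58225 had 9.19, 12.5 and 18.9 TPM at 15 days after culture and 5.53, 7.51 and 3.34 TPM before, so replicate 2 did not stand far apart. Without replicate 2 it did not meet the rule, because its uncultured 15-day mean then lay under the floor of 5 TPM.

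The 3 most abundant members of uncultured 15-day leaves each behaved in their own way. AT2G25510, an uncharacterized protein gene at chr2:10856271-10857217 on the plus strand (TAIR10.1), had 2081, 1408 and 706 TPM at 9 days, 4405, 6725 and 4446 TPM at 12 days and 7153, 8074 and 6418 TPM at 15 days after culture. AT2G25510 before culture had 838, 819 and 1030.2 TPM at 9 days, 3225, 2222 and 2584 TPM at 12 days and 5624, 3111 and 3258 TPM at 15 days, so it climbed with age both times and was the most abundant member. MT1A, a metallothionein that binds metal ions, had 1427, 1337 and 910.5 TPM at 9 days, 2238, 8037 and 3708 TPM at 12 days and 6059, 6670.3 and 3095 TPM at 15 days after culture. MT1A before culture had 266, 217 and 100.2 TPM at 9 days, 1208, 1091 and 879 TPM at 12 days and 1084, 1978 and 1431 TPM at 15 days. Cultured leaves were above uncultured leaves for MT1A at each age. AT1G67865, an uncharacterized protein gene at chr1:25445994-25447622 on the minus strand, went the other way. It had 29.6, 46.5 and 27.3 TPM at 9 days, 289.6, 141 and 84.2 TPM at 12 days and 123, 158 and 164 TPM at 15 days after culture. AT1G67865 before culture had 31.3, 23.99 and 39 TPM at 9 days, 520.1, 430.1 and 384 TPM at 12 days and 1259, 2888 and 2102 TPM at 15 days, so the cultured 15-day libraries were below every uncultured 15-day library.

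The other members among the 12 most abundant were mostly set by replicate 2 of the uncultured 15-day leaves. GASA1, a gibberellin-regulated peptide gene, had 770.5, 338 and 323 TPM at 15 days after culture, against 253, 40.5 and 19.8 TPM at 9 days. Before culture it had 154, 2887 and 407 TPM at 15 days, against 66.3, 21.5 and 24.1 TPM at 9 days. The phospholipase gene PLA2A had 49.2, 45.8 and 29.9 TPM at 15 days after culture, against 10.7, 9.24 and 3.37 TPM at 9 days. Its levels before culture were 63.2, 450.2 and 25.2 TPM at 15 days, against 3.71, 0.81 and 1.63 TPM at 9 days, with every older library above every younger one. HIR2, of the hypersensitive induced reaction family, had 102, 114 and 119 TPM at 15 days after culture and 61.5, 744 and 17.9 TPM before, and its 15-day and 9-day libraries overlapped before culture. PHI-1, a phosphate-induced gene of the EXORDIUM family, had 29.5, 23.8 and 21.5 TPM at 15 days after culture and 3.52, 456 and 0.76 TPM before, where 1 library held nearly all of the level. AT5G52750, a heavy-metal-associated domain protein gene, had 135, 206 and 307 TPM at 15 days after culture and 172, 373 and 31.8 TPM before. Without replicate 2 of the uncultured 15-day leaves GASA1, PLA2A and AT5G52750 still met the rule, while HIR2 and PHI-1 did not. The uncharacterized gene AT1G76960 also met the rule without that library. It had 419, 532 and 334 TPM at 15 days after culture and 381, 137 and 256 TPM before, where replicate 2 was lowest.

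**Figure D3:**
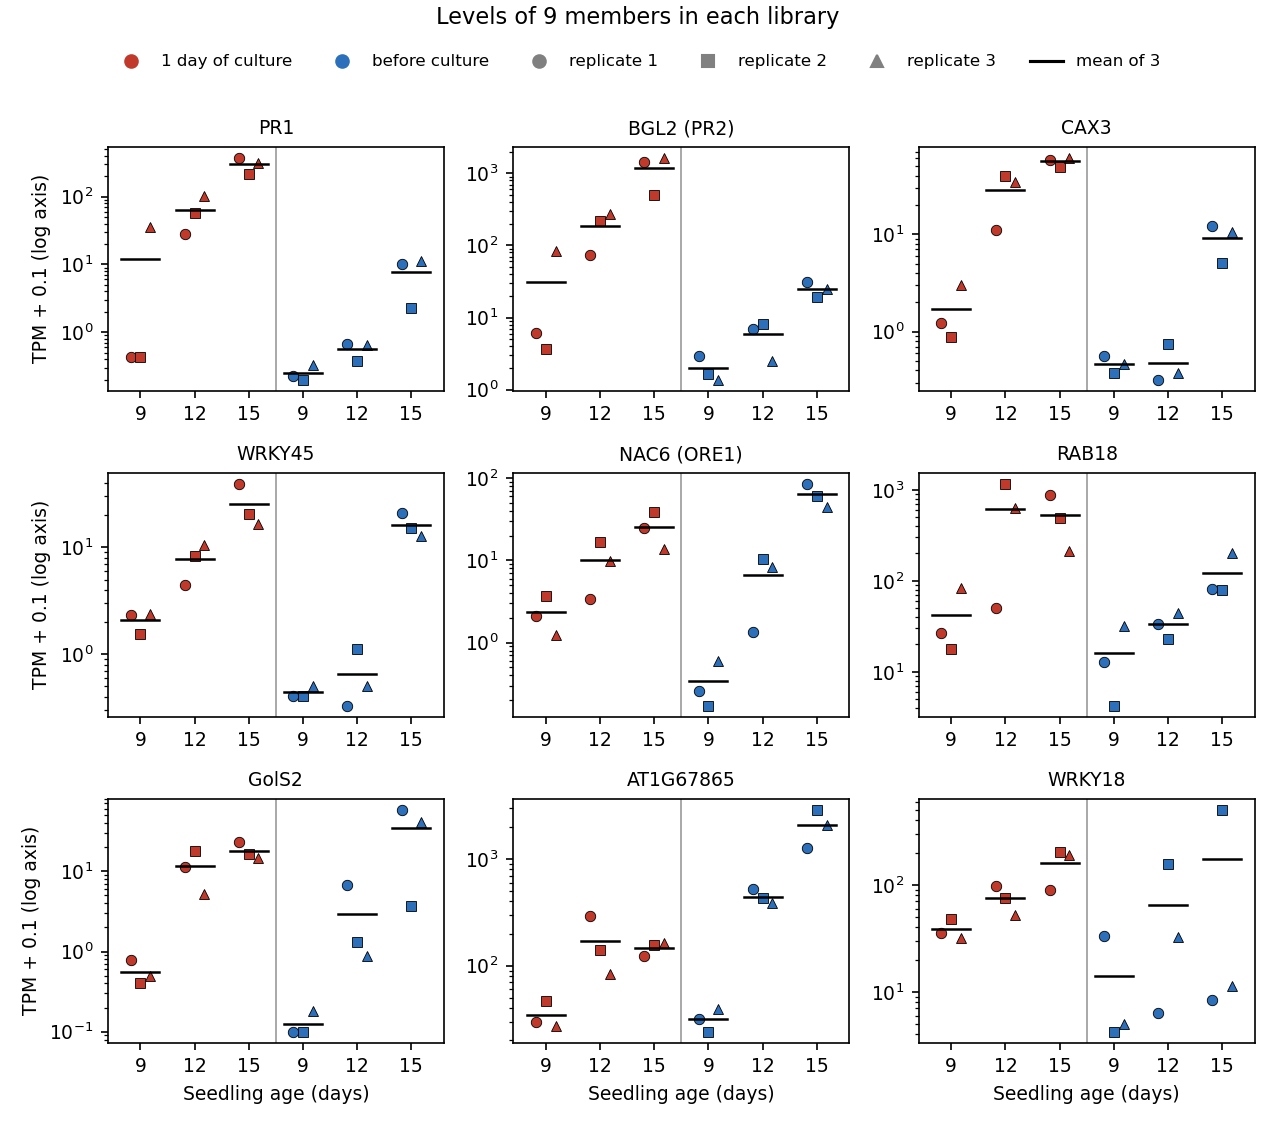
TPM plus 0.1 on a log axis for 9 members in each library, cultured leaves in red at left and uncultured leaves in blue at right, by seedling age in days; marker shapes are replicates 1 to 3 and black lines are means of 3. PR1, BGL2, CAX3 and WRKY45 were higher after culture than before at 12 days in every library, AT1G67865 was lower, and WRKY18 at 15 days before culture was set by replicate 2 with 503 TPM.

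Product words of the annotation marked 15 of the 187 members as transcription factors, out of 197 so marked among genes at 5 TPM in both 15-day groups. Factors whose product lacks the searched words were not counted. Of the 15 so marked, 13 met the rule without replicate 2 of the uncultured 15-day leaves. The 15 held 7 of 28 such NAC genes (25%) and 5 of 27 WRKY genes (18.5%), beside 1.45% of all genes at 5 TPM. The NAC members were NAC6, RD26, NAC3, NAC2, NAC019, NAC036 and NAC046. The WRKY members were WRKY18, WRKY26, WRKY40, WRKY45 and WRKY53, and the rest were MYB51, the zinc finger gene ZF2 and the AP2/ERF gene DREB26.

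NAC6, also named ORE1, is a central activator of leaf senescence. It had 1.99, 3.59 and 1.12 TPM at 9 days, 3.3, 16.6 and 9.74 TPM at 12 days and 24.8, 38.3 and 13.5 TPM at 15 days after culture. NAC6 before culture had 0.16, 0.07 and 0.49 TPM at 9 days, 1.25, 10.4 and 8.21 TPM at 12 days and 85.5, 61.2 and 45.02 TPM at 15 days, so both sets climbed with age and the uncultured one more steeply, with ratios of 15 to 9 days of 11.4 after culture and 266 before. WRKY45, a WRKY factor placed among regulators of age-triggered senescence, had 2.22, 1.45 and 2.27 TPM at 9 days, 4.36, 8.2 and 10.3 TPM at 12 days and 39.2, 20.3 and 16.5 TPM at 15 days after culture. Before culture its levels were 0.31, 0.31 and 0.41 TPM at 9 days, 0.23, 1.03 and 0.41 TPM at 12 days and 20.8, 15.03 and 12.8 TPM at 15 days, with every 15-day library above every younger one. WRKY53, an early senescence regulator, had 8.77, 10.8 and 9.13 TPM at 9 days, 61.8, 23.6 and 15.2 TPM at 12 days and 19.8, 60.5 and 77.3 TPM at 15 days after culture. WRKY53 before culture had 3.77, 4.06 and 1.96 TPM at 9 days, 1.5, 27.9 and 10.3 TPM at 12 days and 35.8, 22.2 and 3.33 TPM at 15 days, and its uncultured 15-day replicate 3 lay below the highest 9-day library. The last senescence-list member, BCB or SAG14, a blue copper-binding protein, had 66.6, 70.3 and 91.7 TPM at 15 days after culture and 37.9, 790.2 and 5.8 TPM before, and did not meet the rule without replicate 2. The list had 25 genes, of which 15 were at 5 TPM in both 15-day groups and 4 were members.

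RD26, NAC3 and NAC019 are related NAC factors induced by abscisic acid and dehydration. RD26 had 6.59, 6.42 and 10.4 TPM at 9 days, 28.7, 78.1 and 35.4 TPM at 12 days and 65.7, 98.98 and 53.5 TPM at 15 days after culture. RD26 before culture had 4.72, 2.88 and 3.63 TPM at 9 days, 7.71, 57.2 and 13.7 TPM at 12 days and 135, 53.8 and 39.1 TPM at 15 days. NAC3 had 12.6, 11.1 and 7.58 TPM at 15 days after culture, against 0.73, 0.78 and 0.97 TPM at 9 days, and before culture 32.7, 54.99 and 6.9 TPM at 15 days, against 0.25, 0.27 and 0.12 TPM at 9 days. NAC019 was higher after culture, with 114, 56.1 and 54.8 TPM at 15 days, and had 9.61, 4.42 and 4.7 TPM at 15 days before. The neighbouring gene of NAC3, NAC2, had 17.8, 17.8 and 24.5 TPM at 15 days after culture and 18.3, 28.5 and 19.8 TPM before, with close replicates. All 7 NAC members were above their 9-day mean at both times, as the rule requires, and the 15-day libraries of RD26, NAC3, NAC019 and NAC2 lay above the 9-day ones both times.

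Of the abscisic acid and dehydration list, 3 of 14 genes at 5 TPM were members, and all 3 met the rule without replicate 2. RAB18, a dehydrin that protects cells from water loss, had 26.7, 17.7 and 82.4 TPM at 9 days, 50.3, 1165 and 634 TPM at 12 days and 867, 492 and 215 TPM at 15 days after culture. RAB18 before culture had 12.7, 4.13 and 31.7 TPM at 9 days, 33.7, 22.7 and 44.1 TPM at 12 days and 80.7, 79.1 and 202 TPM at 15 days. Cultured 12-day replicates 2 and 3 of RAB18 were far above replicate 1, which lay near the uncultured values. NCED3, the enzyme of the committed step in abscisic acid synthesis, had 1.63, 1.78 and 3.14 TPM at 9 days, 14.9, 6.98 and 6.58 TPM at 12 days and 11.4, 12.3 and 10.1 TPM at 15 days after culture. NCED3 before culture had 0.29, 3.17 and 0.60 TPM at 9 days, 1.53, 5.81 and 1.8 TPM at 12 days and 9.58, 4.41 and 4.91 TPM at 15 days, a lower mean at each age. GolS2, a galactinol synthase that feeds raffinose synthesis under drought, had 0.68, 0.30 and 0.39 TPM at 9 days, 11.3, 17.97 and 5.09 TPM at 12 days and 22.9, 16.4 and 14.5 TPM at 15 days after culture. GolS2 before culture had 0, 0 and 0.08 TPM at 9 days, 6.61, 1.23 and 0.77 TPM at 12 days and 58.3, 3.55 and 40.6 TPM at 15 days, the largest ratio of 15 to 9 days among members with counts at 9 days, 1281, against 39.2 after culture. It was listed at 0 in 2 uncultured 9-day libraries, so the ratio before culture is imprecise.

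Salicylic acid and defence genes gave 4 members of 20 at 5 TPM: PR1, BGL2 (PR2), AED1 and WRKY18. PR1, a secreted pathogenesis-related protein, had 0.34, 0.33 and 35.04 TPM at 9 days, 27.6, 57.99 and 101 TPM at 12 days and 371, 216 and 317 TPM at 15 days after culture, where replicate 3 of the 9-day leaves was above the lowest 12-day library. PR1 before culture had 0.13, 0.10 and 0.23 TPM at 9 days, 0.58, 0.28 and 0.54 TPM at 12 days and 10.1, 2.17 and 11.1 TPM at 15 days, below every cultured library of the same age. BGL2, a secreted beta-1,3-glucanase, had 5.98, 3.62 and 85 TPM at 9 days, 73.3, 218 and 269.8 TPM at 12 days and 1453, 498 and 1643 TPM at 15 days after culture, again with a high 9-day replicate 3, and 2.85, 1.57 and 1.27 TPM at 9 days, 6.9, 8.15 and 2.38 TPM at 12 days and 30.6, 19.4 and 24.7 TPM at 15 days before. AED1, an apoplastic aspartyl protease-like protein (AT5G10760), had 4.02, 3.52 and 7.77 TPM at 9 days, 34.5, 41.9 and 52.6 TPM at 12 days and 71.03, 53.3 and 122 TPM at 15 days after culture. AT5G10760 before culture had 1.4, 1.04 and 1.06 TPM at 9 days, 5.78, 3.33 and 2.64 TPM at 12 days and 19.4, 4 and 9.93 TPM at 15 days. These 3 met the rule without replicate 2 of the uncultured 15-day leaves, which was the lowest of its group for each of them. WRKY18, a regulator of salicylic acid defence, behaved otherwise: it had 35.7, 47.4 and 31.6 TPM at 9 days, 97.1, 74.9 and 52.1 TPM at 12 days and 90.05, 202 and 191 TPM at 15 days after culture. WRKY18 before culture had 33.2, 4.13 and 4.9 TPM at 9 days, 6.18, 156 and 32.6 TPM at 12 days and 8.29, 503 and 11.3 TPM at 15 days, and without replicate 2 it did not meet the rule.

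WRKY40, a partner of WRKY18 and the 1 member on the early stress and touch list, had 34.5, 55.6 and 117 TPM at 15 days after culture and 87.2, 173 and 7.11 TPM before. All 11 genes of that list were at 5 TPM, and 3 passed the ratio before culture alone and 2 after culture alone. WRKY26, the WRKY factor with the largest ratio before culture, had 3.39, 1.64 and 0.97 TPM at 9 days, 4.18, 1.87 and 3.84 TPM at 12 days and 9.8, 6.8 and 8.13 TPM at 15 days after culture. WRKY26 before culture had 0.52, 0.03 and 0.49 TPM at 9 days, 0.77, 14.7 and 4.98 TPM at 12 days and 48.8, 177 and 49.3 TPM at 15 days, with every uncultured 15-day library above every cultured one. MYB51, the activator of indole glucosinolate synthesis, had 18.5, 20.7 and 30.6 TPM at 15 days after culture, against 5.71, 4.83 and 4.38 TPM at 9 days. Its values before culture were 62.3, 158 and 17.6 TPM at 15 days, against 9.8, 3.5 and 2.5 TPM at 9 days, so the groups were apart both times.

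Indole glucosinolate and camalexin genes gave 2 further members of 10 at 5 TPM. PAD3, the cytochrome P450 of the last step of camalexin synthesis, had 5.9, 4.34 and 20.98 TPM at 9 days, 12.6, 11.7 and 43.6 TPM at 12 days and 198, 39.5 and 118 TPM at 15 days after culture. PAD3 before culture had 0.31, 0.44 and 0.91 TPM at 9 days, 1.42, 1.94 and 0.95 TPM at 12 days and 1.1, 34.5 and 1.2 TPM at 15 days. Apart from replicate 2 the uncultured 15-day leaves had about the level of 12-day leaves, and PAD3 did not meet the rule without it. IGMT1, an indole glucosinolate methyltransferase, had 14.7, 6.49 and 11.8 TPM at 15 days after culture and 29.1, 169.8 and 13.2 TPM before. Its neighbour and close copy IGMT3 had 5.35, 3.66 and 9.53 TPM at 15 days after culture and 7.19, 82.8 and 2.19 TPM before, and reads may be shared between the copies. The aliphatic list gave 1 member of 22, IMS2, or MAM3, the chain-elongating methylthioalkylmalate synthase. It had 2.77, 2.03 and 4.23 TPM at 9 days, 16.4, 14.5 and 15.4 TPM at 12 days and 36.7, 43.2 and 35.9 TPM at 15 days after culture. IMS2 before culture had 0.22, 0.05 and 0.09 TPM at 9 days, 4.07, 2.35 and 2.69 TPM at 12 days and 6.52, 5 and 16.7 TPM at 15 days, with the groups apart at both times.

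Jasmonate genes gave 1 member of 18, the lipoxygenase LOX4, with 19.2, 17.6 and 32.3 TPM at 15 days after culture and 10.02, 31.6 and 3.75 TPM before; it did not meet the rule without replicate 2. The transport list gave 2 of 11. The nitrate transporter NRT1.5, or NPF7.3, which loads the xylem in roots, had 2.11, 0.86 and 2.03 TPM at 9 days, 6.38, 6.63 and 7.69 TPM at 12 days and 12.2, 8.67 and 8.49 TPM at 15 days after culture. NRT1.5 before culture had 0.14, 0.24 and 0.31 TPM at 9 days, 2.85, 3.38 and 2.99 TPM at 12 days and 10.1, 2.4 and 9.09 TPM at 15 days. MSS1, or STP13, a hexose-proton symporter, had 9.34, 7.43 and 13.2 TPM at 9 days, 17.3, 10.9 and 23.3 TPM at 12 days and 55.7, 35.2 and 47.3 TPM at 15 days after culture. MSS1 before culture had 0.76, 0.87 and 1.61 TPM at 9 days, 1.55, 4.59 and 4.11 TPM at 12 days and 34.2, 47.3 and 18.6 TPM at 15 days, apart at both times. The phosphate starvation list gave 1 of 8, AT4 (AT5G03545), known as a non-coding RNA but counted here as protein coding, as in the annotation. It had 8.52, 38.4 and 36.2 TPM at 15 days after culture and 7.68, 39.1 and 57.3 TPM before, where replicate 1 was low both times. No member came from the lists of flavonoid synthesis, age and flowering (which holds SPL genes), xylem and secondary wall, or sulfur deficiency, nor from the 6 marker lists.

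The members with the largest smaller one of both ratios were low or absent at 9 days. PCR1, a membrane protein linked to cadmium resistance, had 2.82, 1.8 and 2.31 TPM at 9 days, 33.9, 38.8 and 32.5 TPM at 12 days and 144, 171 and 196 TPM at 15 days after culture. PCR1 before culture had 0.65, 0.24 and 1.1 TPM at 9 days, 2.51, 1.77 and 3.06 TPM at 12 days and 35.6, 14.4 and 19.6 TPM at 15 days, with all age groups of cultured leaves apart. CAX3, a vacuolar cation-proton exchanger that moves calcium, had 1.12, 0.77 and 2.91 TPM at 9 days, 10.98, 39.5 and 34.3 TPM at 12 days and 58.4, 48.8 and 60.7 TPM at 15 days after culture. CAX3 before culture had 0.46, 0.28 and 0.37 TPM at 9 days, 0.22, 0.64 and 0.28 TPM at 12 days and 12.04, 4.99 and 10.4 TPM at 15 days. AT5G15500, an ankyrin repeat protein gene, had 80.4, 78.5 and 45.6 TPM at 15 days after culture, against 1.2, 1.28 and 5.38 TPM at 9 days, and 63.2, 7.91 and 53.3 TPM at 15 days before culture, against 0.04, 0.08 and 0.48 TPM at 9 days. AT3G28540, a P-loop nucleoside triphosphate hydrolase gene, had 51.03, 57.2 and 137 TPM at 15 days after culture, against 2.22, 1.63 and 6.08 TPM at 9 days, and 23.7, 2.28 and 35.6 TPM at 15 days before, against 0.10, 0.22 and 0.50 TPM at 9 days.

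A few members had no counts at 9 days, so their ratios are lower bounds with 3 counts in the group taken as the floor. HIPP22, a heavy-metal-associated isoprenylated protein gene, had 8.39, 9.94 and 2.83 TPM at 15 days after culture and 8.58, 8.21 and 2.92 TPM before. It was at least 112-fold higher after culture and at least 118-fold higher before. AT2G38790 was at least 371-fold higher after culture and at least 823-fold higher before, but with 0, 13.2 and 24.4 TPM after culture and 74.2, 21.3 and 0 TPM before at 15 days its replicates did not agree. AT5G51465 was at least 157-fold higher before culture.

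Cell wall enzymes included the xyloglucan-modifying XTH24, XTR6 and XTH18, the 3 highest of 6 glycosyl hydrolase members among 56 such genes at 5 TPM. XTH24 had 36.6, 12.6 and 16.1 TPM at 9 days, 90.4, 37.99 and 34.5 TPM at 12 days and 218, 168 and 188 TPM at 15 days after culture. XTH24 before culture had 11.2, 3.74 and 3.85 TPM at 9 days, 6.55, 183 and 6.16 TPM at 12 days and 64.3, 1231 and 77.8 TPM at 15 days, with replicate 2 far above the others at both 12 and 15 days. XTR6 had 128, 17.9 and 36.7 TPM at 15 days after culture and 0.20, 250.1 and 0.05 TPM before. XTH18, next to XTH24 on chromosome 4, had 54.5, 5.7 and 17.4 TPM at 15 days after culture and 0.81, 239 and 0.08 TPM before. Without replicate 2, XTH24 met the rule and XTR6 and XTH18 did not.

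Oxidative and detoxifying enzymes were also represented. Families were counted by product words of the annotation. Cytochromes P450 gave 9 of 79 genes at 5 TPM (11.4%), PAD3 among them, with CYP71B4, CYP89A9 and CYP71B19 highest before culture. CYP89A9, which acts in chlorophyll breakdown, had 7.69, 6.79 and 7.91 TPM at 9 days, 20.1, 33.1 and 32.6 TPM at 12 days and 68.1, 60.9 and 51.6 TPM at 15 days after culture. CYP89A9 before culture had 2.92, 4.16 and 4.27 TPM at 9 days, 8.25, 8.07 and 5.44 TPM at 12 days and 79.9, 25.4 and 67.2 TPM at 15 days. CYP71B19 had 2.96, 2.29 and 2.46 TPM at 9 days, 15.7, 14.9 and 16.5 TPM at 12 days and 37.96, 31.1 and 34.4 TPM at 15 days after culture. CYP71B19 before culture had 1.05, 1.03 and 2.38 TPM at 9 days, 4.99, 4.93 and 4.3 TPM at 12 days and 50.7, 22.8 and 35.3 TPM at 15 days, while its neighbour CYP71B18, annotated as a transcribed pseudogene and not in that count, had 15.3, 19.8 and 14.4 TPM at 15 days after culture and 48.6, 51.05 and 56.2 TPM before. CYP71B4 had 45.2, 58.2 and 67.98 TPM at 15 days after culture and 94.8, 29.1 and 107 TPM before. The 1 glutathione S-transferase of 30 was GSTU4, with 11.6, 18.3 and 29.2 TPM at 9 days, 18.1, 37.6 and 64.4 TPM at 12 days and 151, 58.98 and 69.05 TPM at 15 days after culture. GSTU4 before culture had 0.25, 0.15 and 0.45 TPM at 9 days, 0.77, 8.15 and 0.73 TPM at 12 days and 17.4, 32.9 and 8.1 TPM at 15 days. The 2 peroxidases of 10, AT4G37520 and AT4G37530, are neighbours, with 84.6, 34.8 and 63.7 TPM and 56.4, 18.4 and 36.7 TPM at 15 days after culture. Before culture they had 18.9, 168 and 23.2 TPM and 3.54, 48 and 5.28 TPM, both highest in replicate 2.

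Membrane proteins, glycosyltransferases and lipid transfer proteins were counted in the same way. Transporters gave 10 of 378 genes at 5 TPM (2.65%), and receptor-like kinases or proteins gave 9 of 327 (2.75%), beside the 1.45% of all genes at 5 TPM. UMAMIT20, of the amino acid exporter family, had 3.17, 2.54 and 4.37 TPM at 9 days, 17.2, 22.4 and 16.8 TPM at 12 days and 37.9, 53.3 and 31.6 TPM at 15 days after culture. UMAMIT20 before culture had 0.19, 0.17 and 0.16 TPM at 9 days, 9.72, 16.3 and 8.06 TPM at 12 days and 31.9, 49.3 and 40.9 TPM at 15 days, with all ages apart at both times. PUT1, a polyamine uptake transporter, had 13.9, 16.2 and 19.1 TPM at 15 days after culture and 26.4, 5.11 and 23.1 TPM before. The highest receptor-like member, RLP19, had 10.2, 16.6 and 24.2 TPM at 15 days after culture and 15.98, 26.1 and 22.4 TPM before. AT5G39030, a receptor-like kinase gene, had 9.03, 11.2 and 14.7 TPM at 15 days after culture and 21.02, 14.1 and 13.8 TPM before. ARCK1, a receptor-like kinase linked to abscisic acid and osmotic stress, had 49.4, 28.1 and 58.1 TPM at 15 days after culture and 6.79, 22.9 and 6.35 TPM before. Every cultured library of ARCK1 was above every uncultured one at 15 days, while at 12 days they overlapped. Glycosyltransferases gave 10 of 134 (7.46%), led by the fucosyltransferase FUT4 with 19.9, 27.7 and 48.7 TPM at 15 days after culture and 32.9, 156 and 14.6 TPM before, and then by AT2G44500 and AT2G41640. Lipid transfer proteins gave 3 of 43 (AT5G55460, AT4G39670 and AT1G02470), and no defensin of 6 was a member.

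On the chromosomes, 19 members lay next to another member, in 9 runs among the 182 protein-coding and pseudogene members. Besides the pairs named above these were AT1G24140, AT1G24145 and AT1G24147, PYD4 and AT3G08870, AT3G48640 and AT3G48650, and AT5G52750 and AT5G52760. Several are tandem copies, between which the authors' counting could divide reads, and their separate levels are uncertain. Of the members with values here, MT1A overlaps a gene on its own strand, and RAB18, WRKY40, WRKY53, NRT1.5, HIR2, ARCK1 and AT2G38790 overlap a gene on the opposite strand. Strand use in counting is not stated, so reads of such pairs cannot be told apart with certainty.

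The ratio cut ran through a continuum. Just inside it were ATOBGM, with ratios of 4.04 after culture and 109 before, and PFA-DSP1, with 4.07 and 5.54. Just outside were AT2G41380, with 3.99 after culture and 6.76 before, and AT3G15518, with 3.99 and 9.79.

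Replicates left out of the choice were used to read the same ratios. When the rule was applied to 2 replicates, the remaining replicate had both ratios at 4 or more in 92 of 206 genes for replicate 1, 93 of 153 for replicate 2 and 100 of 187 for replicate 3. Of all genes at 5 TPM, 1.25%, 1.5% and 1.47% had both ratios at 4 or more in those replicates. Most of the chosen genes were higher at 15 than at 9 days in the remaining replicate: after culture 192 of 206, 152 of 153 and 185 of 187, and before culture 193, 148 and 176. Of all genes at 5 TPM, 62.6%, 61.8% and 61.8% were higher at 15 days in those replicates after culture, and 72.4%, 55.8% and 52.2% before. Of those chosen without replicate 2, 115 were members.

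The 12-day leaves had no part in the choice. Their mean lay between the 15-day and 9-day means in 176 of 187 members after culture, with 7 above the 15-day mean and 4 below the 9-day mean. Before culture it lay between in 182, with 5 above. On the log2(TPM + 1) scale the median member had covered 67.1% of the way from the 9-day to the 15-day mean by 12 days after culture, and 50.04% before culture. For the 129 members that met the rule without replicate 2 of the uncultured 15-day leaves the shares were 73.3% and 48.7%, and for the 58 others 49.8% and 54.4%. The end points chose the members and lie at least 4-fold apart, which favours a mean between them. No share over all genes stands beside these counts, so nothing is read from them and no test is given.

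The response to culture in 12-day leaves was tested, since that contrast shares no library with the choice. Each gene's spread was nevertheless estimated over all 18 libraries. Cultured leaves were also 1 day older than uncultured leaves of the same age label, so culture and 1 day of ageing cannot be told apart. This holds at each age, and the members were chosen for higher levels in older leaves. All 187 members were tested among 20952 genes by quasi-likelihood F-tests in edgeR, and calls were made at an adjusted p under 0.05 (Benjamini-Hochberg over all of them). After culture 51 members (27.3%) rose and 3 (1.604%) fell, where 10.4% of all genes rose and 9.33% fell. The median log2 fold change, cultured over uncultured, was 0.81 in the members and -0.03 in all genes tested. Without replicate 2 of the uncultured 12-day leaves 56 members rose and 1 fell, where 7.76% and 7.82% of all genes did, and the medians were 1.57 and 0.01. Of the 54 calls, 27 held with each replicate number left out in turn, and 18, 11 and 21 were lost without replicates 1, 2 and 3. With replicates 1 and 2 alone 34 members rose and 1 fell, where 1114 and 976 of 20880 genes did, and with a term for replicate 3 the counts were 51 and 3. Replicate 3 alone has 1 library per group and gives no test. In TPM, the 3 cultured 12-day libraries were all above the 3 uncultured ones in 88 members and all below in 4, where 34.9% and 7.95% of all genes had these orders. TPM ratios of this contrast lie 0.33 (log2) above the scaled counts over all genes, so the TPM orders lean upward.

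**Figure D4:**
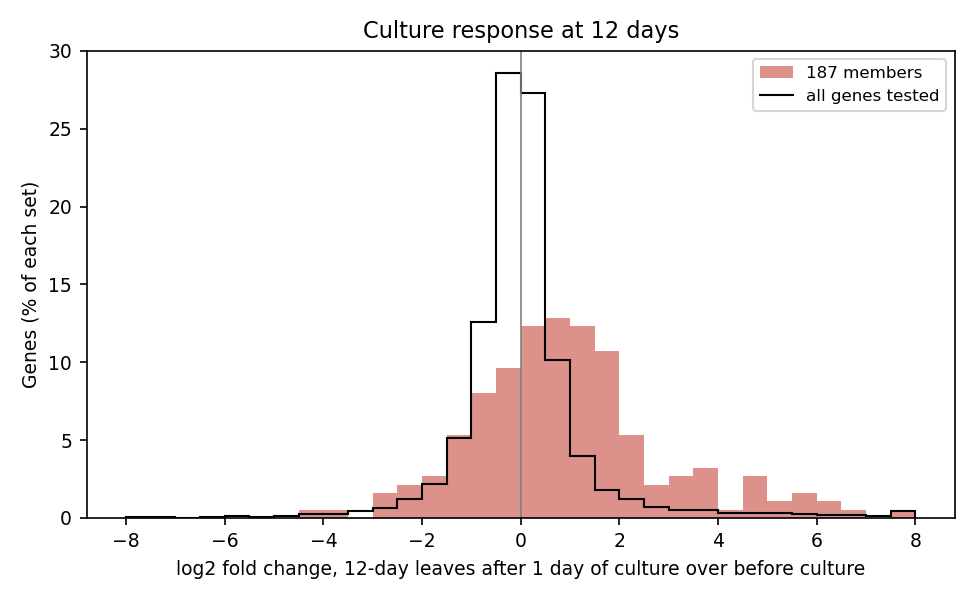
Distribution of the log2 fold change of 12-day leaves, after 1 day of culture over before, for the 187 members (filled) and all 20952 genes tested (line), in percent of each set per bin of 0.5; the outermost bins also hold values beyond them. Members lie further right, with a median of 0.81 against -0.03.

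The 5 members with the largest log2 fold changes among those that rose were HIPP22, PR1, AT4G16260, PYD4 and CAX3, of which PR1 is on the salicylic acid and defence list. HIPP22 had 0.06, 16.4 and 1.75 TPM in cultured 12-day leaves, against 0, 0.06 and 0 TPM in uncultured ones (adjusted p = 0.0186). No fold change is given, because the uncultured 12-day libraries held almost no counts of it. The call was lost without replicate 2 (adjusted p = 0.164), without replicate 3 (adjusted p = 0.108) and without replicate 2 of the uncultured 12-day leaves alone (adjusted p = 0.0639). PR1, whose 12-day values stand above, rose with a log2 fold change of 6.70 ± 1.42 (SE, adjusted p = 0.00391). AT4G16260, a glycosyl hydrolase gene, had 25.4, 5.81 and 31.9 TPM in cultured 12-day leaves, against 0.23, 0.29 and 0.08 TPM in uncultured ones, a log2 fold change of 6.38 ± 0.97 (SE, adjusted p = 0.000363). PYD4, an aminotransferase of pyrimidine breakdown, had 137, 171 and 177 TPM in cultured 12-day leaves, against 3.9, 0.65 and 1.28 TPM in uncultured ones, a log2 fold change of 6.05 ± 0.82 (SE, adjusted p = 0.000157). CAX3 rose with a log2 fold change of 5.87 ± 0.61 (SE, adjusted p = 2.21e-05). In the last 4 of these genes every cultured library was above every uncultured one, and no call was lost with a replicate left out.

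Among list members, BGL2 rose with a log2 fold change of 4.66 ± 1.02 (SE, adjusted p = 0.00489), AED1 with a log2 fold change of 3.11 ± 0.48 (SE, adjusted p = 0.000432), WRKY45 with a log2 fold change of 3.42 ± 0.49 (SE, adjusted p = 0.000229) and IMS2 with a log2 fold change of 2.01 ± 0.42 (SE, adjusted p = 0.00362). RAB18 rose with a log2 fold change of 3.84 ± 0.96 (SE, adjusted p = 0.0107), a call lost without replicate 2 (adjusted p = 0.138) and without replicate 3 (adjusted p = 0.0694). MSS1 rose with a log2 fold change of 1.98 ± 0.43 (SE, adjusted p = 0.00417), a call lost without replicate 1 (adjusted p = 0.0989) and without replicate 3 (adjusted p = 0.0539). PAD3 rose with a log2 fold change of 3.60 ± 1.18 (SE, adjusted p = 0.0437), a call lost without replicate 1 (adjusted p = 0.14), without replicate 3 (adjusted p = 0.243) and without replicate 2 of the uncultured 12-day leaves (adjusted p = 0.0877). The remaining list members missed the threshold: NAC6 with a log2 fold change of 0.26 ± 0.70 (SE, adjusted p = 0.834), WRKY53 with a log2 fold change of 1.01 ± 0.88 (SE, adjusted p = 0.469), WRKY18 with a log2 fold change of -0.17 ± 1.31 (SE, adjusted p = 0.947) and MYB51 with a log2 fold change of -0.90 ± 0.80 (SE, adjusted p = 0.481). RD26 missed it too, with a log2 fold change of 0.53 ± 0.66 (SE, adjusted p = 0.62), but passed without replicate 2 of the uncultured 12-day leaves, with a log2 fold change of 1.94 (adjusted p = 0.0404). NCED3, LOX4, IGMT1, WRKY40, NRT1.5, BCB and AT4 also missed it, with log2 fold changes from -2.60 for IGMT1 to 1.295 for NCED3.

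Some further members that rose are named here after their values were seen. CML41, a calmodulin-like protein, had 30.9, 123 and 52.4 TPM in cultured 12-day leaves, against 1.33, 0.85 and 0.97 TPM in uncultured ones, a log2 fold change of 5.72 ± 0.74 (SE, adjusted p = 0.000115). BCAT-2, a branched-chain amino acid transaminase, had 7.28, 21.9 and 15.5 TPM in cultured 12-day leaves, against 0.03, 0.84 and 0.59 TPM in uncultured ones, a log2 fold change of 4.55 ± 0.89 (SE, adjusted p = 0.00226). TRX5, a thioredoxin of the h type, had 47.3, 105 and 92.1 TPM in cultured 12-day leaves, against 7.41, 14.4 and 5 TPM in uncultured ones, a log2 fold change of 2.84 ± 0.47 (SE, adjusted p = 0.000723). In these 3 the cultured libraries were all above the uncultured ones. PCR1 rose with a log2 fold change of 3.52 ± 0.35 (SE, adjusted p = 1.48e-05), CYP71B19 with a log2 fold change of 1.39 ± 0.23 (SE, adjusted p = 0.000785) and AT1G76960 with a log2 fold change of 3.17 ± 0.41 (SE, adjusted p = 0.000117).

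The 3 members that fell were AT1G67865, AT1G51270 and AT2G32160. AT1G67865, whose values stand above, had a log2 fold change of -1.72 ± 0.43 (SE, adjusted p = 0.0108), a call lost without replicate 2 (adjusted p = 0.0786), without replicate 3 (adjusted p = 0.101) and with only the 12-day libraries in the fit (adjusted p = 0.0523). AT1G51270, a vesicle-associated protein gene, had 2.87, 2.46 and 3.11 TPM in cultured 12-day leaves, against 3.43, 11.8 and 5.57 TPM in uncultured ones, a log2 fold change of -1.63 ± 0.51 (SE, adjusted p = 0.0366). Its call was lost with any of the 3 replicate numbers left out and without replicate 2 of the uncultured 12-day leaves (adjusted p = 0.209). AT2G32160, a methyltransferase family gene, had 14.5, 14.3 and 15.7 TPM in cultured 12-day leaves, against 25.2, 19.8 and 20.9 TPM in uncultured ones, a log2 fold change of -0.89 ± 0.29 (SE, adjusted p = 0.042). That call was lost without replicate 1 (adjusted p = 0.314), without replicate 2 (adjusted p = 0.156) and without replicate 2 of the uncultured 12-day leaves alone (adjusted p = 0.0686).

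Of the 58 library-dependent members, 6 rose at 12 days (10.3%), where 10.4% of all genes rose, and none fell, with a median log2 fold change of 0.26. Of the 129 others, 45 rose (34.9%) and 3 fell, with a median of 0.93. Without replicate 2 of the uncultured 12-day leaves the medians were 1.64 for the 58 and 1.44 for the 129, with 8 and 48 that rose, where 7.76% of all genes did. The difference between both sets was not tested. The spread of each gene was estimated over all libraries, including the library that defined the 58. Outlying values in that library can widen the spread of these genes and hold back calls. Their share of calls therefore cannot show whether they responded less to culture than the 129 or about as all genes did. XTH24, 1 of the 129, had a log2 fold change of -0.62, and of 2.79 without replicate 2 of the uncultured 12-day leaves (adjusted p = 0.128). Among the settings that gave it an adjusted p, it was called with replicate 2 of every group left out, at a log2 fold change of 2.98 (adjusted p = 0.0247).

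Whole lists are given beside all genes tested, of which 10.4% rose and 9.33% fell with a median log2 fold change of -0.03. The list with the highest median was flavonoid and anthocyanin synthesis, which holds no member: 18 of its 20 genes rose and none fell, with a median log2 fold change of 4.32. Of the salicylic acid and defence list, 15 of 30 tested genes rose and none fell, with a median log2 fold change of 1.31. Of the leaf senescence list 10 of 24 rose and 1 fell (median 0.93), of the abscisic acid and dehydration list 11 of 18 rose and none fell (1.84), and of the jasmonate list 10 of 30 rose and none fell (0.80). Transport genes gave 8 that rose and 1 that fell of 15. The phosphate starvation list gave 4 that rose and none that fell of 15. Indole glucosinolate and camalexin genes gave 3 that rose and 1 that fell of 13, and aliphatic glucosinolate genes 1 each way of 24. The age and flowering list gave 1 that rose and 3 that fell of 23, and the xylem and sulfur deficiency lists 1 that rose each, of 12 and 11. Of the markers, 2 of 5 leaf and 1 of 5 phloem genes fell, and none of 4 guard cell genes passed. No gene of the 11 in the early stress and touch list passed, with a median of -1.03.

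Culture at 9 and 15 days, described with no test because those libraries chose the members, differed in level. The median log2 fold change of the members, cultured over uncultured, was 1.43 at 9 days, 0.81 at 12 days and 0.00 at 15 days, against -0.01, -0.03 and -0.07 in all genes tested. At 9 days 117 members (62.6%) were above 1 on this scale, where 9.85% of all genes were, and 5 were under -1, where 5.3% were. At 15 days 47 members (25.1%) were above 1, where 17.6% of all genes were, and 46 (24.6%) were under -1, where 15.4% were. The Pearson correlation of the members' log2 fold changes was 0.753 between 12 and 15 days and 0.557 between 9 and 12 days, over 187 genes, and 0.793 and 0.686 over all genes tested.

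**Figure D5:**
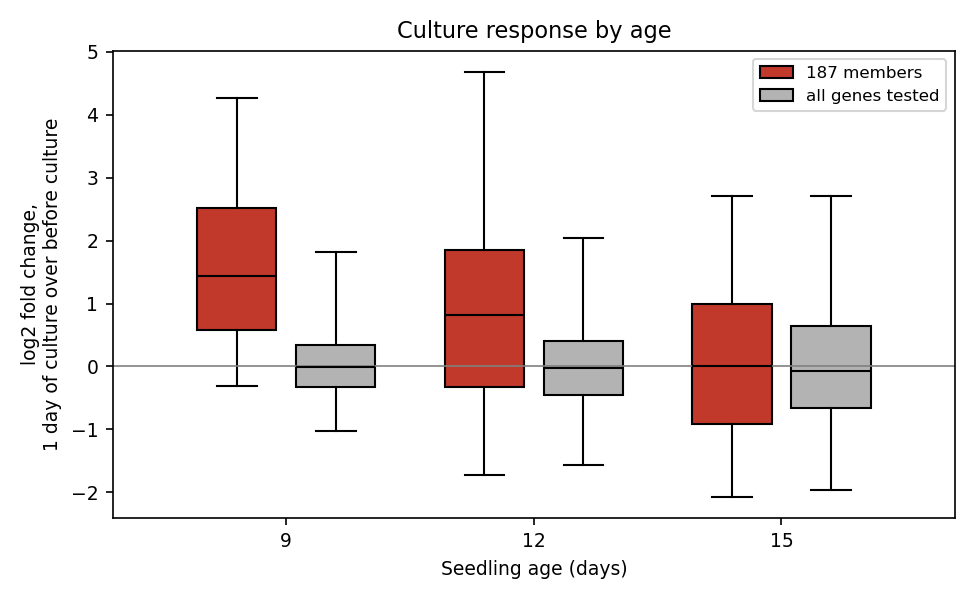
Log2 fold change after 1 day of culture over before culture, by seedling age in days, for the 187 members (red, left of each pair) and all 20952 genes tested (grey, right); boxes span the quartiles, lines are medians and whiskers reach the 5th and 95th percentiles. The members' median was 1.43 at 9 days, 0.81 at 12 days and 0.00 at 15 days, and the median of all genes was -0.01, -0.03 and -0.07.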

How the data were processed

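Values for 18 libraries were used as deposited. Per the submitters' processing notes, the authors used Trimmomatic, STAR 2.5.3, RSEM 1.3.0 and TAIR10. Per the file headers, the deposited expected count per gene shares reads among similar genes and need not be whole. Per the file headers, the authors also deposited TPM (scaled by effective length and library total) and FPKM, and FPKM was not used. Annotation version and strand use are not given in the sources used here. Names and promoters come from TAIR10.1, in which 37390 IDs matched and 99.1% of 16746 single-transcript genes had the deposited length within 0.5 nt.

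Expected counts were rounded. Tests used edgeR 4.0.16 (TMM, filterByExpr at a minimum count of 10, quasi-likelihood F-test, 1 mean per group), with DESeq2 1.42.0 as an alternative. Only the edgeR test was also run on simulated data. The 51 and 3 calls are Benjamini-Hochberg adjusted over 20952 genes. The common biological coefficient of variation was 0.340. Only the 12-day culture contrast was tested.

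The members, the 19 gene lists with 285 genes, and the tests were chosen with earlier results of these data known. Genes are named by fixed rules (abundance, ratio, list, family, position, size of the culture response), with exceptions stated. Alternatives changed scaling, filter, tool, samples, replicate block, fold and floor. Promoter windows end just before the annotated gene start.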

Additional observations from a re-analysis of the deposited data

How the results depend on the processing

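The rule gave 187 genes, and between 153 and 206 with each replicate number left out in turn; it gave 142 without replicate 2 of the uncultured 15-day leaves (129 shared), 162 with medians (127 shared) and 174 with scaled counts. A 3-fold threshold or a floor of 1 TPM filled the cap of 300, a 6-fold threshold gave 102 and a floor of 10 TPM gave 124. The 12-day mean lay between the ends in 156 to 176 members after culture and 150 to 182 before under all alternatives run.

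At 12 days, 51 members rose and 3 fell after culture. With each replicate number left out, 34 to 65 rose and 0 to 2 fell, and without replicate 2 of the uncultured 12-day leaves 56 rose and 1 fell. DESeq2 gave 57 and 7. RLE factors, the filters, only 12-day libraries and a term for replicate 3 gave 49 to 52 that rose. The replicate block gave 54 that rose and 3 that fell; correlations of same-numbered samples were -0.134, 0.113 and 0.223, the first of them negative, so the numbers were not taken as pairs, although cultured replicates 2 and 3 correlated best with their own number. Across 76 named genes and 11 settings, 737 results kept their direction and their side of the threshold, 39 lost and 18 gained a call, and 40, in 20 genes, changed sign. XTH24 had -0.62 on the log2 scale and ranged from -1.76 to 2.98 with replicates left out; it was positive without replicate 2, the 1 sign change in which a call was made (adjusted p = 0.0247). The log2 fold changes of BCB (-2.46, range -3.67 to 0.25), HIR2 (-1.07, range -1.91 to 0.61), PLA2A (-1.42, range -2.35 to 0.64), WRKY18 (-0.17, range -0.96 to 1.71), LOX4 (-0.69, range -1.79 to 0.44), WRKY26 (-1.39, range -2.13 to 0.17), RLP19 (-0.12, range -0.42 to 0.48), AT5G39030 (-0.033, range -0.62 to 0.35), XTR6 (-1.01, range -1.81 to 3.80), IGMT3 (-0.71, range -1.41 to 1.53) and AT3G48650 (-0.35, range -2.03 to 1.55) were negative and turned positive with a replicate left out. Those of AT5G52750 (1.02, range -0.069 to 2.46), AT2G38790 (1.73, range -1.72 to 3.77), WRKY53 (1.01, range -0.32 to 2.42), FUT4 (0.69, range -0.45 to 1.77), AT4G39670 (0.28, range -0.70 to 2.84), AT1G24147 (0.021, range -0.19 to 0.18), AT1G24140 (0.030, range -1.50 to 0.76) and AT3G48640 (0.58, range -0.33 to 2.33) were positive and turned negative with a replicate left out. Under the replicate block the log2 fold changes that changed sign were 0.35 for XTH24, 0.51 for WRKY18, 0.51 for XTR6, -0.020 for AT1G24147, 0.058 for IGMT3, -0.27 for AT1G24140 and 0.068 for AT3G48650, and a term for replicate 3 gave -0.26 for AT1G24140. None of these passed the threshold apart from XTH24 without replicate 2; the cause was not tested. Levels near 0 at 9 days limit the ratios, and 3 libraries per group limit the calls.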
